A study of Mus musculus with 8 samples.

Results

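The 9 genes described here encode spleen tyrosine kinase (SYK), its relative ZAP70, the Src family kinases LYN and FGR that act before SYK, and the enzymes and adaptors that act after it: BTK, PLCγ2, BLNK, CARD9 and VAV1. They were listed by name and role, and all 9 were found among the 57010 genes of the deposited count matrix. The samples were single-cell RNA-seq libraries of kidney cells from male C57BL/6 mice, whose age was not given in the sources used here. There were 7 conditions: a control of mice with untouched kidneys, and kidneys taken 1, 7 or 14 days after unilateral ischemia-reperfusion injury (IRI) of the left kidney in mice given either vehicle (DMSO) or entospletinib. Entospletinib is a small-molecule inhibitor of SYK, given by intraperitoneal injection before IRI and, in the longer arms, repeatedly afterward. Cells of 3 mice were pooled in each condition, so that each condition was 1 pool, and live leukocytes were enriched by FACS on a viability dye and scatter. The 8 deposited libraries were sublibraries that each held cells of every condition, and differences among them were technical.

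SYK binds phosphorylated ITAMs, short tyrosine motifs in the tails of Fc receptors, of the B cell receptor and of the adaptors used by many C-type lectin receptors. Src family kinases such as LYN and FGR phosphorylate these motifs, SYK docks on them, and BLNK and VAV1 then relay the signal to PLCγ2, BTK and the cytoskeleton, while CARD9 carries signals from lectin receptors to NF-κB. In T cells ZAP70 takes the place that SYK holds in B cells and myeloid cells, and natural killer cells use both. In the kidney these proteins are known mainly from infiltrating and resident leukocytes.

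The genes lie at separate loci (GRCm38, GENCODE release M21, all protein coding). *Syk* spans chr13:52583173-52648792 and *Zap70* chr1:36761798-36782818. *Lyn* spans chr4:3678115-3813122 and *Fgr* chr4:132974095-133001910, both on chromosome 4. *Btk* spans chrX:134542336-134583570, *Plcg2* chr8:117498291-117635142 and *Vav1* chr17:57279100-57328031. *Blnk* spans chr19:40928927-40994535 and *Card9* chr2:26352176-26360918. The promoters of 4 members, chosen for holding a match to a motif below and for a highest class that was B-cell-like (*Syk* and *Btk*), neutrophil-like (*Fgr*) or T-cell-like (*Zap70*), are printed. Each is the RefSeq reference sequence (GRCm38.p6) from 250 bases before to 50 bases after a start site, 5′ to 3′ on the strand of the gene. Capitals mark GAGGAA, a core recognised by PU.1, or TGTGGT, a core recognised by RUNX factors, each on either strand.
Syk, second start site, chr13:52596632-52596931, plus strand: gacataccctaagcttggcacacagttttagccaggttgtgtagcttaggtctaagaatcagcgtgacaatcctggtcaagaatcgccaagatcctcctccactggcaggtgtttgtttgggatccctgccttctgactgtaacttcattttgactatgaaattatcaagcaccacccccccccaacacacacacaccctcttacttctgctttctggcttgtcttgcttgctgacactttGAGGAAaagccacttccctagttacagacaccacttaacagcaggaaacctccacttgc
Fgr, chr4:132973845-132974144, plus strand: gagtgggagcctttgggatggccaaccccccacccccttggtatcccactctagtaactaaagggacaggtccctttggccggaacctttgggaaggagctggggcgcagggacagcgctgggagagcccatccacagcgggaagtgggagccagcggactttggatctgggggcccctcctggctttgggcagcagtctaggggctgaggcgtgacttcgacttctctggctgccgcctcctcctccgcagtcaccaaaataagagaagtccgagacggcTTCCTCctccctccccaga
Btk, chrX:134583091-134583390, minus strand: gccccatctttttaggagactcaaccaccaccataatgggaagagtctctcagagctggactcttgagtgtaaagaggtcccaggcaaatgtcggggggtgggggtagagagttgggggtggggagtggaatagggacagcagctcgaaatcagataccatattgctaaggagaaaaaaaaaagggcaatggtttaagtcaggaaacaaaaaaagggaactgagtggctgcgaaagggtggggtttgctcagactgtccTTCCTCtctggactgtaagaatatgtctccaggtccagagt
Zap70, second start site, chr1:36764265-36764564, plus strand: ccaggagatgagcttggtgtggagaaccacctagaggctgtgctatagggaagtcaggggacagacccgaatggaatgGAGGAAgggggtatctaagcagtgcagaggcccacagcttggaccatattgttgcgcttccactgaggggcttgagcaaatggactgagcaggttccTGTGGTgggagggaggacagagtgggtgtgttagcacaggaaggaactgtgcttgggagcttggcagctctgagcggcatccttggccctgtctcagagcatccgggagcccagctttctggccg
The GAGGAA match lay at position -9 from the *Syk* start site, at 31 in *Fgr* (as TTCCTC), at 9 in *Btk* (as TTCCTC) and at -172 in *Zap70*, where TGTGGT lay at -75. The RefSeq table held 11 promoters of 8 members and no entry for *Lyn*. Of these 11, 6 held GAGGAA, both start sites of *Zap70* and 1 each of *Syk*, *Fgr*, *Btk* and *Vav1*, against 28.3% of 32851 promoters, and 1 held TGTGGT, against 16.8%. These matches are a description of letters in a window of 300 bases.

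The count matrix held 388617036 transcript counts in 120281 barcodes, of which 79389 passed the limits on genes, counts, mitochondrial and ribosomal-protein-gene content. Marker genes put 60660 of these cells (76.4%) into a class, called "-like" here, and no member served as a marker. The cells comprised 22657 macrophage-like, 13616 neutrophil-like, 3952 monocyte-like, 2423 conventional dendritic cell type 2-like (cDC2-like), 2204 T-cell-like, 2197 B-cell-like and 7596 endothelial-cell-like cells, with smaller dendritic, natural killer, tubule and stroma classes, so that cells other than leukocytes passed the sort. Among markers most particular to a class were *C1qa* and *Ms4a7* in macrophage-like, *S100a9* and *Cxcr2* in neutrophil-like, *Pax5* and *Ms4a1* in B-cell-like and *Themis* and *Bcl11b* in T-cell-like cells. The pools differed in depth. Median counts per cell ran from 960 in entospletinib day 14 to 2930 in control, and total counts per pool from 11842327 to 71691915. The limit on ribosomal protein genes removed 29.0% of entospletinib day 1 barcodes, 12.1% of entospletinib day 7 and 24% of entospletinib day 14, against 4.24% to 8.53% in the other 4 pools. Neutrophil-like cells were few in control (68), entospletinib day 7 (119) and entospletinib day 14 (45). The barcodes were all distinct, although 13712 of 105340 well combinations recurred in more than 1 sublibrary.

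Levels are counts scaled to 1e+06 counts of the cells of a class in a pool (CPM), given as the mean ± SD over the 7 pools. They were not divided by gene length and compare classes for 1 gene, not genes with each other. The members differed in the class where they were highest. *Syk* and *Btk* were highest in B-cell-like cells, *Fgr* in neutrophil-like cells, and *Lyn*, *Plcg2* and *Card9* in monocyte-like cells. *Blnk* was highest in plasmacytoid-dendritic-cell-like and B-cell-like cells, and *Zap70* in T-cell-like cells. *Vav1* was highest in macrophage-like cells, was counted in every leukocyte class and was low in endothelial and epithelial classes. Some of these first ranks were close. *Vav1* was at 317 CPM in macrophage-like against 307.5 in cDC2-like cells, and higher in 4 of 7 pools. *Plcg2* was higher in monocyte-like than in B-cell-like cells in 4 of 7 pools.

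**Figure D1:**
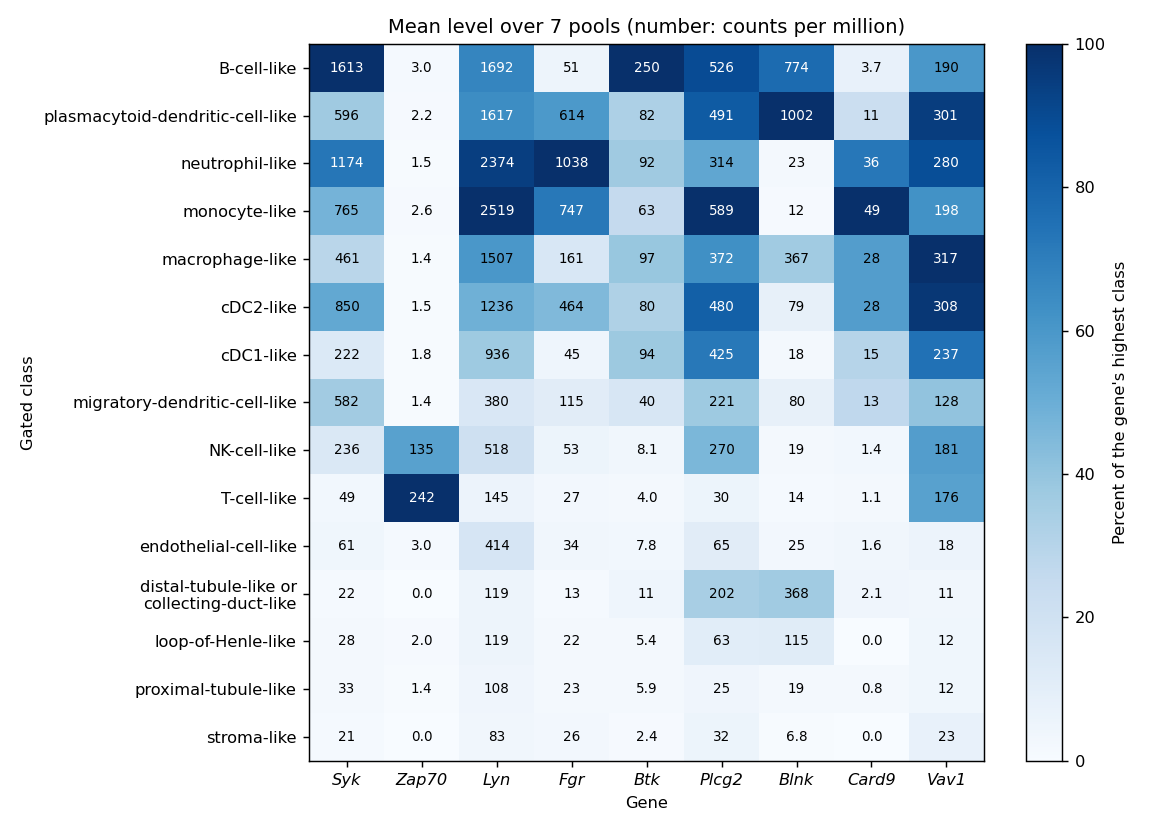
Mean level of each member (columns) in each gated class (rows) over 7 pools, as CPM (printed number), with colour showing the percent of that gene's highest class. *Syk* runs from 1613 in B-cell-like cells to 21.5 in stroma-like cells, and *Zap70* stands at 242 in T-cell-like and 135 in NK-cell-like cells and at most at 3.03 in every other class.

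*Syk*, the drug target, was at 1613 ± 295 CPM in B-cell-like, 1174 ± 260 in neutrophil-like, 850.3 ± 120 in cDC2-like, 765 ± 95.9 in monocyte-like and 461 ± 58.7 in macrophage-like cells (SD, n = 7 pools). In NK-cell-like and cDC1-like cells it was lower, at 236 ± 39.7 and 222 ± 59.0 CPM. Endothelial-cell-like cells held 61.1 ± 19.7, T-cell-like cells 49.5 ± 13.1 and proximal-tubule-like cells 33.3 ± 12.7 CPM. B-cell-like cells were above neutrophil-like cells in 7 of 7 pools, whereas neutrophil-like cells were above cDC2-like cells in 6. Over all members, 108 pairs of classes adjacent in a gene's order were compared, and 21 were higher in 7 of 7 pools (exact two-sided sign-flip permutation test over pools, smallest possible p 0.0156). None passed 0.05 after Benjamini-Hochberg adjustment over the 108 pairs (smallest adjusted p 0.0804), although 30 had an unadjusted p under 0.05. With 7 pools and 108 pairs this test had little room to pass, and a missed threshold does not show that neighbouring classes were alike. Each gene's order was taken from the mean CPM of the same 7 pools, so the expected direction came from the values tested. The counts of pairs are therefore a description and cannot test the order.

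Since cells differed in depth, the share of cells with a *Syk* count was compared after thinning every cell to 500 counts. *Syk* was then seen in 51.9% of B-cell-like (95% exact binomial interval 49.8 to 54.1), 44.6% of neutrophil-like (43.8 to 45.4), 34.1% of cDC2-like and 33.0% of monocyte-like cells, and in 20.01% of those called macrophage-like (19.5 to 20.5). In T-cell-like cells, which use ZAP70, it was 1.69% (1.19 to 2.32), in endothelial-cell-like cells 1.78% and in proximal-tubule-like cells 1.45%. The unthinned shares were 81.3%, 72.9%, 85.1%, 84.5%, 61.0%, 6.90%, 8.33% and 7.47% in the same order of classes. The thinned shares of the last 3 classes had overlapping intervals. Intervals cover counting error only, and how many of the counts in these 3 classes came from RNA of other cells was not tested. The T-cell-like cells (median 2103 counts) and B-cell-like cells (1627) were close in depth.

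**Figure D2:**
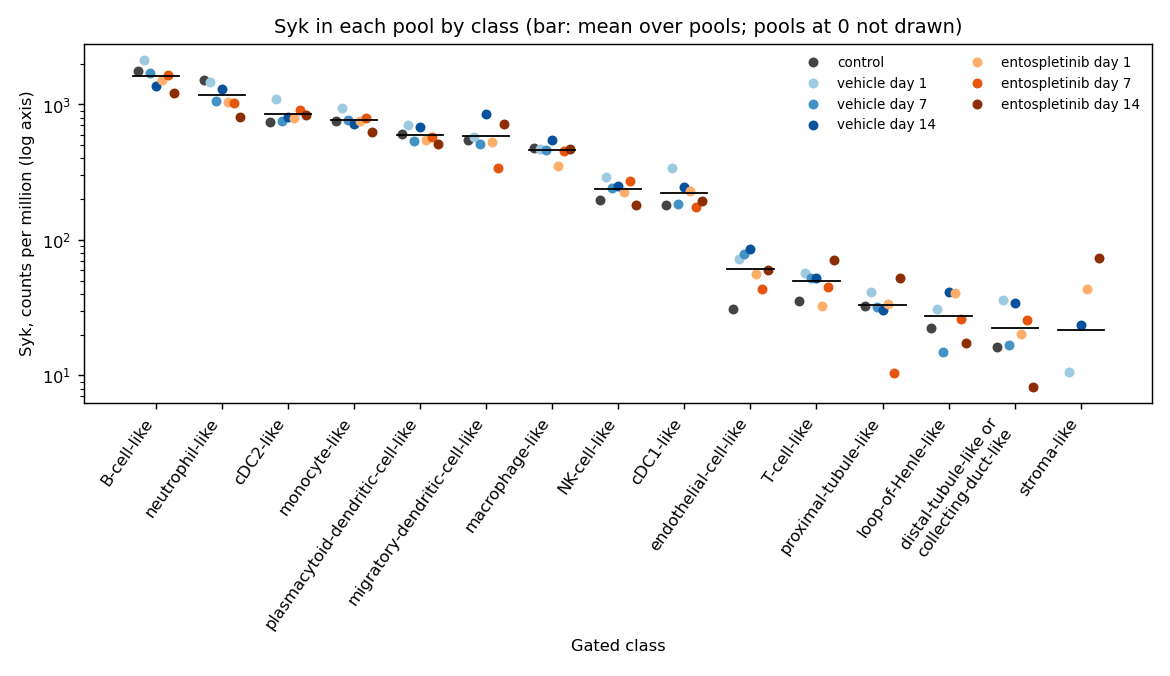
*Syk* level in CPM (log axis) in each of the 7 pools (points) for each class, with the mean over pools as a bar. Pools of B-cell-like cells lie between 1210 and 2119, those of macrophage-like cells between 349 and 548, and those of T-cell-like cells between 32.6 and 70.9.

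*Zap70* showed the reverse division. In T-cell-like cells it was at 312 CPM in control, 253, 196 and 231 in vehicle days 1, 7 and 14, and 188, 288 and 224 in entospletinib days 1, 7 and 14. NK-cell-like cells ranged from 44.9 to 182 CPM (mean 135 ± 46.4). T-cell-like and NK-cell-like ranges did not overlap, as the lowest T-cell-like pool was above the highest NK-cell-like pool. After thinning, 11.2% of T-cell-like (9.90 to 12.6) and 6.27% of NK-cell-like cells (4.38 to 8.66) had a *Zap70* count, against 0 of 2135 B-cell-like cells (upper bound 0.173% at this thinned depth) and 0.0847% of macrophage-like cells. Unthinned, the shares were 37.0%, 22.5%, 0.546% and 0.428% in the same order of classes. Of 2490 *Zap70* counts, 54.0% lay in T-cell-like cells, which held 2.23% of all counts.

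Among the Src family kinases, *Lyn* was at 2519 ± 403 CPM in monocyte-like, 2374 ± 595 in neutrophil-like, 1692 ± 190 in B-cell-like and 1507 ± 193 in macrophage-like cells, and at 145 ± 40.0 in T-cell-like cells. Endothelial-cell-like cells held 414 ± 51.8 CPM of *Lyn*, with no pool as low as the highest T-cell-like pool (356 against 220). *Fgr* was narrower. It was at 1038 ± 255 CPM in neutrophil-like, 747 ± 153 in monocyte-like and 614 ± 111 in plasmacytoid-dendritic-cell-like cells, at 161 ± 48.4 in macrophage-like and at 50.7 ± 27.8 in B-cell-like cells. Neutrophil-like pools of *Fgr* (699 to 1454) and macrophage-like pools (117 to 247) did not overlap.

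*Btk*, the Tec family kinase that activates PLCγ2, was at 249.9 ± 24.9 CPM in B-cell-like cells, with pools from 226 to 287. Its levels in macrophage-like (97.3 ± 15.3), neutrophil-like (91.8 ± 25.9), cDC2-like (80.5 ± 16.2) and monocyte-like cells (62.8 ± 11.7) overlapped. It was at 4.02 ± 2.19 in T-cell-like cells. *Plcg2*, which cleaves a membrane phospholipid to release calcium signals, was at 589 ± 99.9 CPM in monocyte-like, 526 ± 42.5 in B-cell-like, 480 ± 97.3 in cDC2-like, 373 ± 52.7 in macrophage-like, 314 ± 54.3 in neutrophil-like and 30.2 ± 19.4 in T-cell-like cells. NK-cell-like cells differed from T-cell-like cells in *Plcg2*, at 269.9 ± 63.8 CPM, and their pools did not overlap (145 to 335 against 8.16 to 68.3).

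The adaptors differed among myeloid classes. *Blnk*, which links SYK to PLCγ2 and is best known from B cells, was at 1002 ± 174 CPM in plasmacytoid-dendritic-cell-like and 774 ± 97.8 in B-cell-like cells. It was at 367 ± 96.8 CPM in macrophage-like cells, but at 23.1 ± 8.70 in neutrophil-like and 11.6 ± 6.42 in monocyte-like cells. The 22657 macrophage-like cells thus held 60.4% of all 45205 *Blnk* counts, against 30.2% of all counts of all genes. *Blnk* was also counted in epithelium, at 368 ± 155 CPM in the distal-tubule-like or collecting-duct-like class (pools 198 to 637) and 115 ± 25.5 in loop-of-Henle-like cells (pools 66.6 to 142), but at 25.2 ± 15.4 in endothelial-cell-like and 18.8 ± 14.0 in proximal-tubule-like cells. After thinning, 18.8% of the 308 cells in that distal class (14.6 to 23.7) and 0.8% of proximal-tubule-like cells had a *Blnk* count. *Plcg2* was likewise above other parenchymal classes there, at 202 ± 63.8 CPM (pools 134 to 319). That class had 9 cells in 1 pool and did not enter the tests. *Card9* had few counts. It was at 48.9 ± 10.3 CPM in monocyte-like, 35.5 ± 18.8 in neutrophil-like and 28.0 ± 6.06 in macrophage-like cells, and at 3.66 ± 4.93 in B-cell-like cells. In neutrophil-like cells of entospletinib day 14 it had 0 counts in 45 cells, which allows up to 84.1 CPM (3 counts).

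*Vav1*, which encodes a signalling protein of blood cells, ranged over the leukocyte classes from 128.3 ± 32.3 CPM in migratory-dendritic-cell-like to 317 ± 70.7 in macrophage-like cells. In endothelial-cell-like cells it was at 18.3 ± 5.75 CPM. It was at 190.0 ± 25.9 in B-cell-like and 176 ± 35.8 in T-cell-like cells, whose pools (160 to 241 and 127.6 to 236) overlapped.

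Where the counts of a member lay depended on both level and cell number, and fewer cells of a class cannot be told apart from less RNA per cell in such shares. Of 138319 *Syk* counts, 25.2% lay in macrophage-like, 21.9% in neutrophil-like, 9.48% in monocyte-like, 6.21% in cDC2-like and 4.93% in B-cell-like cells, and 28.3% in cells outside the 15 classes whose levels were compared, with the rest in the other classes. These shares depended on how cells were classed. When each cell was given its most likely class, so that none stayed outside, monocyte-like cells held 28.3% of *Syk* counts, macrophage-like 27.0%, neutrophil-like 21.5%, cDC2-like 11.8% and B-cell-like 5.77%, so that monocyte-like cells came first over all pools together. By pool they came first only at vehicle day 1 and entospletinib day 1. Macrophage-like cells came first in every other pool, as in control with 53.5% against 6.66% in monocyte-like cells. At vehicle day 1 the monocyte-like share went from 15.0% to 47.8% and at entospletinib day 1 from 19.0% to 43.5%. Neutrophil-like cells held 9.40% of all counts. In control, 1.23% of *Syk* counts lay in neutrophil-like cells (95% exact binomial interval 1.05 to 1.43) and 43.6% in macrophage-like cells. At vehicle day 1 these shares were 36.7% (36.3 to 37.1) and 10.1%, at vehicle day 7 22.0% and 36.7%, and at vehicle day 14 8.60% and 42.9%. With entospletinib the neutrophil-like share of *Syk* counts was 22.9% on day 1, 2.51% on day 7 and 0.621% on day 14. It was below the vehicle pool on each day, with intervals that did not overlap but no replicate pool at any day. In all cells together *Syk* was at 339 CPM in control, 842, 550.0 and 562 in vehicle days 1, 7 and 14, and 504, 387 and 394 in entospletinib days 1, 7 and 14.

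**Figure D3:**
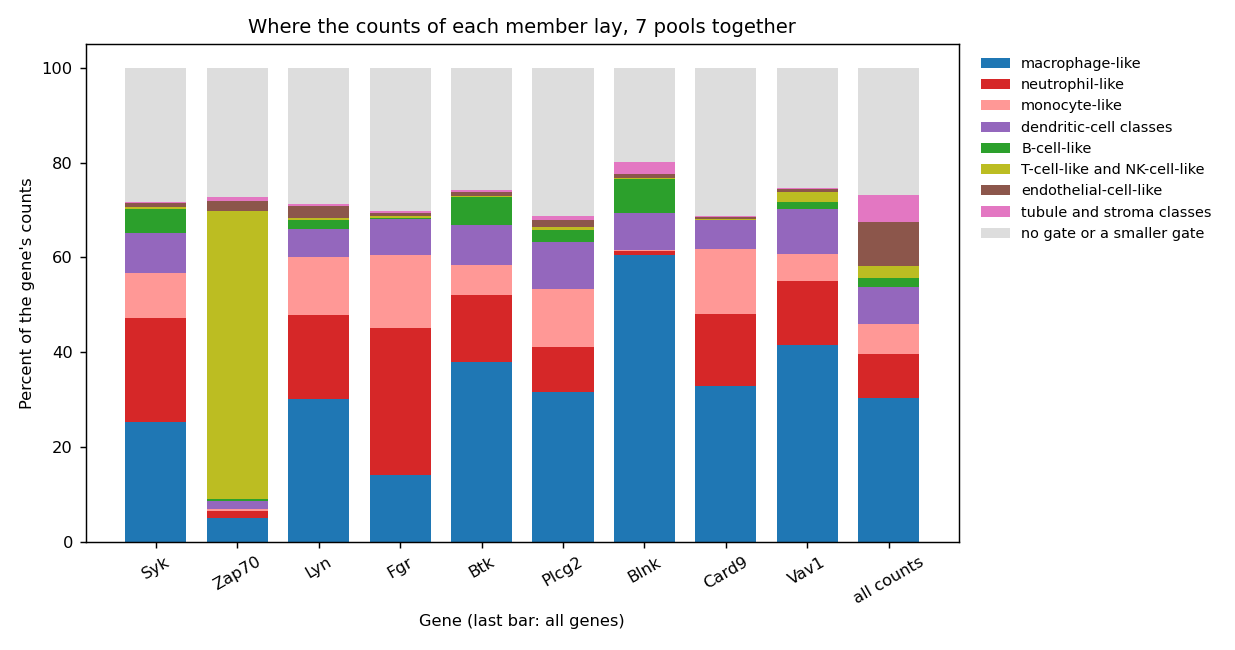
Percent of each member's counts, over the 7 pools together, that lay in each class (stacked bars), with all genes as the last bar. Macrophage-like cells held 60.4% of *Blnk* counts, neutrophil-like cells 30.9% of *Fgr* counts and T-cell-like cells 54.0% of *Zap70* counts.

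Comparisons of 5 pairs of classes were tested within pools, with edgeR's quasi-likelihood test on counts summed per pool and class, pool as a block and Benjamini-Hochberg adjustment over all genes tested. The 7 pools are 7 conditions, and p-values measure the spread of a difference over them. Values in parentheses are log2 fold changes of the first-named class over the second. Against macrophage-like cells, neutrophil-like cells had more *Syk* and *Fgr* and less *Blnk*. The log2 fold change was 1.61 for *Syk* (SE 0.22, adjusted p 3.47e-09), 2.98 for *Fgr* (SE 0.22, adjusted p 6.89e-19) and -3.66 for *Blnk* (SE 0.26, adjusted p 8.02e-20), each in the same direction in 7 of 7 pools. *Lyn* was also higher (0.89, SE 0.21, adjusted p 0.000215, 7 of 7 pools). *Card9* (0.77, adjusted p 0.0098, 5 of 7 pools) and *Zap70* (1.099, adjusted p 0.0317, 3 of 7 pools) passed too, but *Zap70* was at 1.51 CPM against 1.44 and both calls were lost by DESeq2, with total counts as library sizes and without the filter on low counts, and *Zap70* turned to -0.14 when classes were assigned by likelihood. *Btk* (0.36, SE 0.24), *Plcg2* (0.08, SE 0.22) and *Vav1* (0.13, SE 0.22) did not pass. Their mean CPM was nonetheless lower in neutrophil-like cells (91.8 against 97.3, 314 against 373 and 280.0 against 317). With total counts in place of TMM factors the values were 0.03, -0.22 and -0.17. The fitted signs of *Plcg2* and *Vav1* thus rested on the TMM factors, as did most of the *Btk* value, whose sign did not turn. In all, 5 members were higher and 1 lower of 9, where 25.7% of 13667 genes were higher and 34.3% lower. The median log2 fold change was 0.77 for the members and -0.20 for all genes.

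Monocyte-like cells differed from macrophage-like cells in 8 of the 9 members. *Fgr* (2.37, SE 0.10), *Card9* (0.94, SE 0.14), *Syk* (0.87, SE 0.10), *Lyn* (0.87, SE 0.09) and *Plcg2* (0.79, SE 0.09) were higher in 7 of 7 pools, with adjusted p from 2.49e-16 to 4.26e-06. *Blnk* (-4.92, SE 0.15, adjusted p 6.37e-19), *Vav1* (-0.54, adjusted p 0.0002) and *Btk* (-0.42, adjusted p 0.0141) were lower in 7 of 7, the last call lost when cells with a defining marker of another lineage were left out. *Zap70* did not pass (0.64, SE 0.55). Over all 13213 genes 17.5% were higher and 26.5% lower. The members' median was 0.79, against -0.13 for all genes.

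B-cell-like cells had more *Syk* (1.66, SE 0.12, adjusted p 8.13e-10), *Btk* (1.23, SE 0.10, adjusted p 2.92e-09) and *Blnk* (0.97, SE 0.15, adjusted p 2.59e-05) than macrophage-like cells in 7 of 7 pools. *Plcg2* was higher by 0.37 (SE 0.10, adjusted p 0.00529), a call lost without the filter on low counts and when cells with a defining marker of another lineage were left out. *Card9* (-3.59, SE 0.40), *Fgr* (-1.82, SE 0.23) and *Vav1* (-0.85, SE 0.10) were lower in 7 of 7 pools, with adjusted p of 2.84e-07, 1.1e-05 and 1.1e-06. *Lyn* (0.04, SE 0.10) and *Zap70* (0.87, SE 0.54) did not pass. These 4 higher and 3 lower members stand beside 22.5% higher and 28% lower of 11971 genes, and the medians were 0.37 for the members and -0.03 for all genes.

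B-cell-like and T-cell-like cells, the lymphoid classes that use SYK and ZAP70 respectively, differed in 7 of 8 members tested. *Btk* (5.66, SE 0.19), *Blnk* (5.62, SE 0.16), *Syk* (4.96, SE 0.13), *Plcg2* (4.02, SE 0.15) and *Lyn* (3.50, SE 0.10) were higher in B-cell-like cells in 7 of 7 pools, with adjusted p from 2.86e-25 to 3.15e-17. *Zap70* was lower by 6.29 on the log2 scale (-6.29, SE 0.24, adjusted p 8.81e-22). *Fgr* was higher by 0.70 (SE 0.22, adjusted p 0.00927, 5 of 7 pools) at 50.7 against 26.7 CPM, a call lost when cells with a defining marker of another lineage were left out. *Vav1* did not pass (0.04, SE 0.11), and *Card9* was below the filter. Of 7933 genes, 20.6% were higher and 22.8% lower, against 6 higher and 1 lower of 8 members tested. The members' median was 3.76, against 0.00 for all genes.

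**Figure D4:**
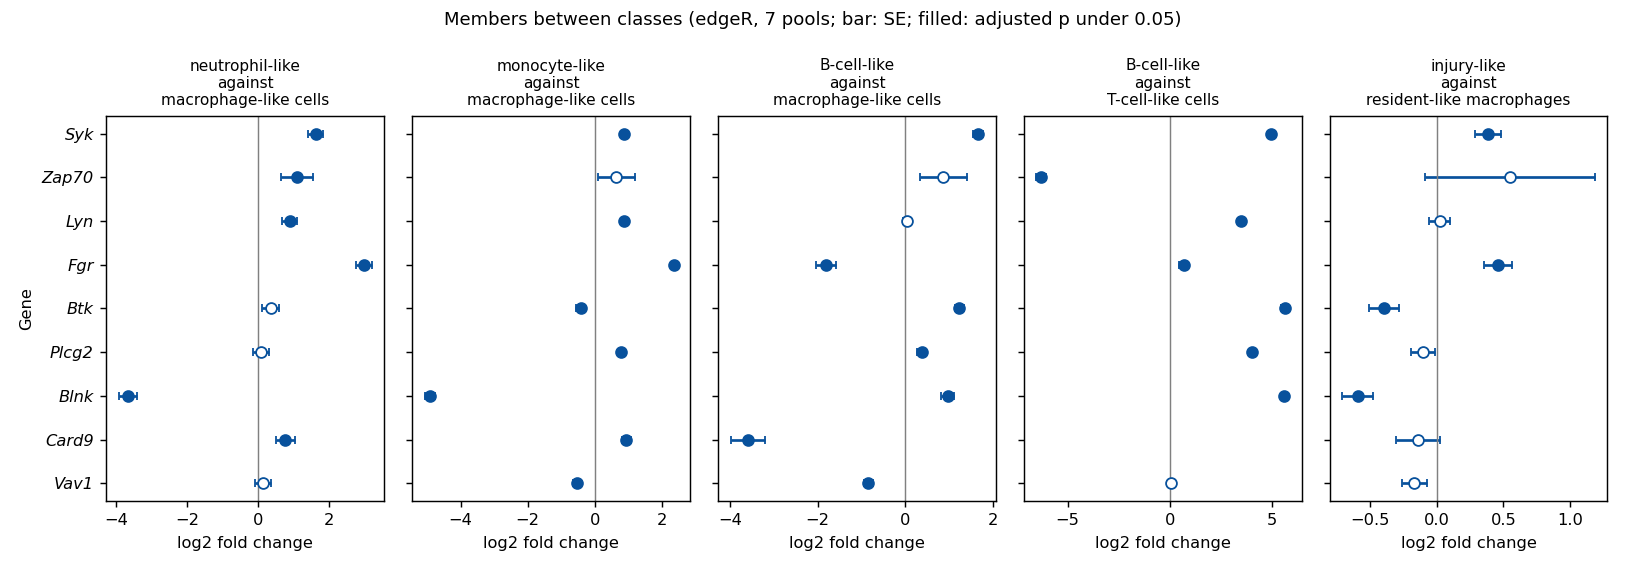
Log2 fold change (horizontal axis, with SE) of each member in the 5 tested comparisons of classes over 7 pools, filled where the adjusted p is under 0.05. *Syk* lies to the right of 0 in every panel, from 0.39 between macrophage subsets to 4.96 between B-cell-like and T-cell-like cells, and *Zap70* lies at -6.29 in the latter.

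Macrophage-like cells were split by markers into resident-like and injury-like cells, whose shares differed between pools. Injury-like cells made up 2.63% of macrophage-like cells in control, 24.9%, 13.4% and 5.27% in vehicle days 1, 7 and 14, and 13.6%, 3.94% and 4.85% in entospletinib days 1, 7 and 14. Relative to resident-like cells, injury-like cells had more *Fgr* (0.46, SE 0.11, adjusted p 0.00162) and *Syk* (0.39, SE 0.10, adjusted p 0.00327), each in 6 of 7 pools. They had less *Blnk* (-0.59, SE 0.12, adjusted p 0.000639) and *Btk* (-0.39, SE 0.11, adjusted p 0.0132) in 7 of 7. *Lyn* (0.02, SE 0.08), *Plcg2* (-0.10, SE 0.09), *Card9* (-0.14, SE 0.16), *Vav1* (-0.17, SE 0.09) and *Zap70* (0.55, SE 0.63) did not pass. *Lyn* turned to -0.07 with total counts, and *Zap70* was at 1.22 against 1.37 CPM. By pool, *Syk* in injury-like cells was 484 CPM in control, 573, 571 and 637 in vehicle and 374, 452 and 736 in entospletinib, and in resident-like cells 478, 411, 431, 539, 342, 454 and 448 in the same order. The 2 members higher and 2 lower stand beside 9.02% higher and 8.53% lower of 12929 genes, and none of the 4 calls held without the pool block. The *Syk* call was also lost with assignment by likelihood (0.18), and that of *Btk* without cells holding a defining marker of another lineage. The share of called genes that were higher fell from 51.4% to 29.6% with total counts in place of TMM factors. That share changed likewise from 42.9% to 28.0% in neutrophil-like and from 39.8% to 28.5% in monocyte-like against macrophage-like cells, and it rose from 44.5% to 52.7% in B-cell-like against macrophage-like and from 47.5% to 50.5% in B-cell-like against T-cell-like cells. The median of all genes shifted by 0.41, 0.15, 0.13 and -0.13 in the neutrophil-like, monocyte-like, injury-like and B-cell-like comparisons with macrophages. The directions of the called members did not turn under this scaling in any of the 5 comparisons.

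The next comparison asked how the members stood in injured kidneys without drug. With 1 pool per condition no test was possible, and ratios are given on the log2 scale relative to the median gene of the class, since that median itself moved (by 0.13, -0.33 and -0.09 in macrophage-like cells at vehicle days 1, 7 and 14). The intervals are 95% and cover counting error only, and the sublibraries are technical splits of the same pools, not replicates. In macrophage-like cells *Blnk* was at 484 CPM in control, 221, 295 and 452 in vehicle days 1, 7 and 14 and 299.6, 425 and 394 in entospletinib days 1, 7 and 14. Relative to control it was lower by 1.26 at vehicle day 1 (-1.26, interval -1.33 to -1.20) and by 0.38 at day 7 (-0.38, -0.45 to -0.32), in 8 of 8 sublibraries each, and level at day 14 (-0.01, -0.06 to 0.04). Within resident-like cells alone the day 1 value was -0.92 (-0.997 to -0.848). *Blnk* was the 1 member of 7 with enough counts that passed 2-fold, at day 1, where 15.3% of genes did; none passed at day 7 or 14, where 6.68% and 4.84% did. The summed level of 10 B cell markers in macrophage-like cells was 143 CPM in control, 53.4, 85.9 and 135 in vehicle and 76.3, 148 and 235 in entospletinib days 1, 7 and 14, against at least 8207 in B-cell-like cells. This sum had the same order as *Blnk* over the control and vehicle pools. With entospletinib it did not, as the sum was highest on day 14 and *Blnk* on day 7. The part of these markers in the *Blnk* result was not tested.

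*Syk* in macrophage-like cells was at 478 CPM in control, 469.5, 460.4 and 548 in vehicle and 349, 457 and 469 in entospletinib days 1, 7 and 14. Relative to the median gene, vehicle over control was -0.16 on day 1 (-0.21 to -0.10), 0.28 on day 7 (0.22 to 0.34) and 0.29 on day 14 (0.24 to 0.33). With TMM factors these values were -0.04, 0.23 and 0.27, and in plain CPM -0.02, -0.05 and 0.20, so that the day 1 value depended on the scaling and the day 7 value turned with it. *Vav1* was higher at day 1 (0.34, 0.28 to 0.41), from 289 CPM in control to 401. *Plcg2* was lower at day 14 (-0.38, -0.43 to -0.32), from 426 to 309 CPM. *Btk* was at 110.0 CPM in control and at 93.8, 75.3 and 83.9 in vehicle, with ratios of -0.36, -0.21 and -0.30. The ratios of *Fgr* were 0.18, -0.16 and -0.20 and those of *Lyn* -0.06, -0.20 and -0.10. These values are all within 2-fold, and *Card9* and *Zap70* had too few counts for a ratio.

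**Figure D5:**
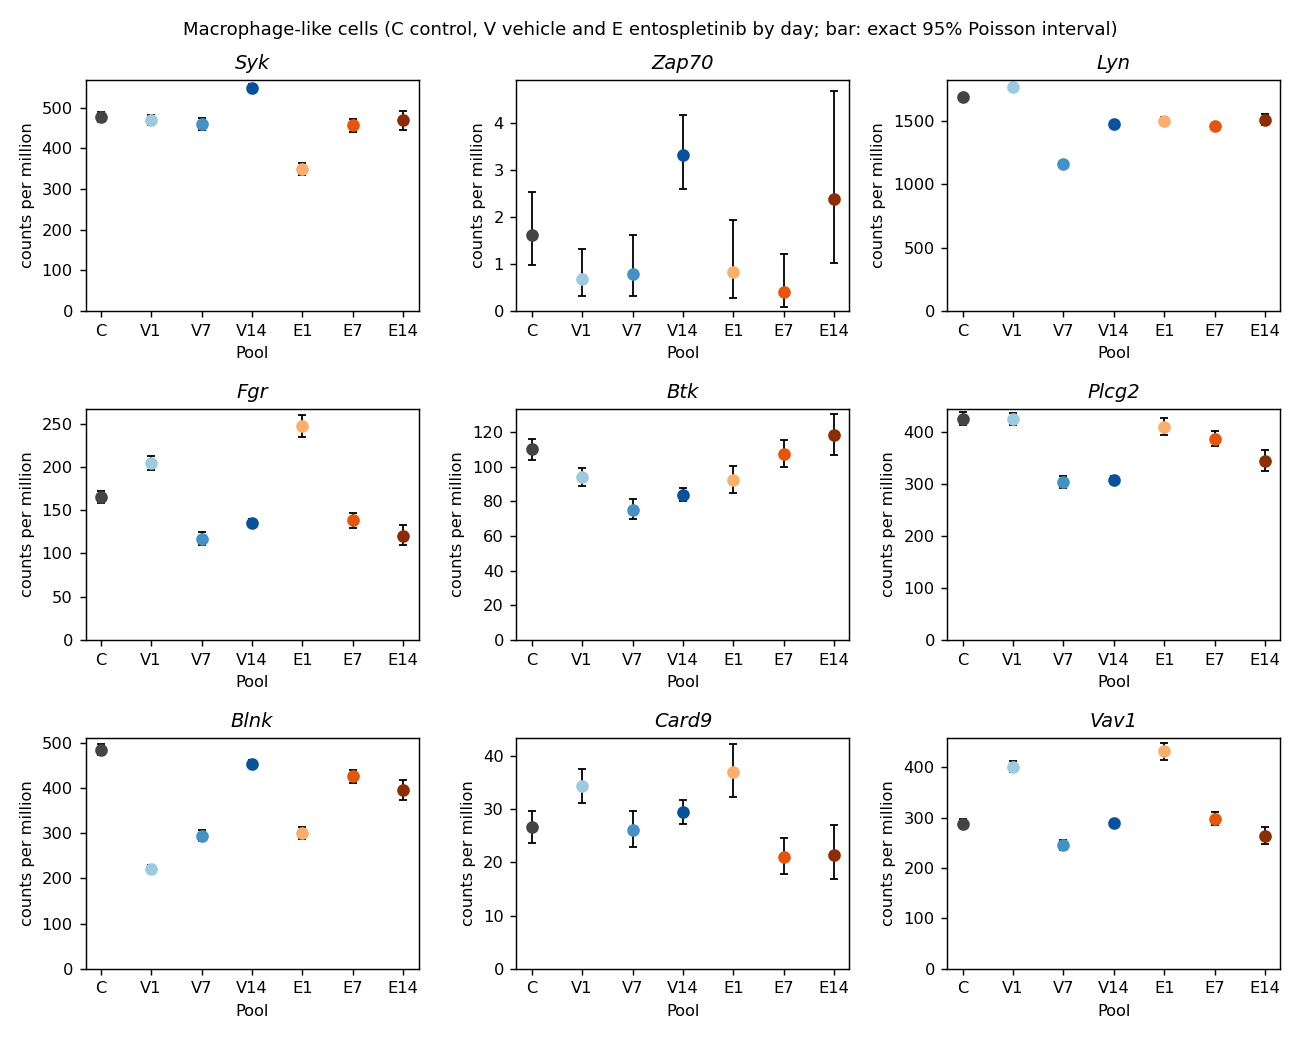
Level of each member in macrophage-like cells by pool (C control; V vehicle and E entospletinib by day), in CPM, with the exact 95% Poisson interval as a bar. *Blnk* falls from 484 in C to 221 in V1, and *Syk* is lower in E1 (349) than in V1 (469.5).

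Members past 2-fold after injury were also found in other classes, with cDC2-like and endothelial-cell-like cells given first. In cDC2-like cells *Fgr* was at 255 CPM in control, 699, 360 and 378 in vehicle and 697, 486 and 370 in entospletinib days 1, 7 and 14. Relative to the median gene the vehicle ratios were 1.31 (1.13 to 1.49), 0.71 (0.51 to 0.92) and 0.64 (0.48 to 0.81), each in 8 of 8 sublibraries. It was the 1 of 7 members past 2-fold at day 1, where 9.03% of genes were, with none at day 7 (7.33%) or day 14 (5.7%). The summed level of 12 neutrophil markers in these cells was 705 CPM in control and 2330, 1416 and 1082 in vehicle, and its part in the *Fgr* ratio was not tested. In endothelial-cell-like cells *Syk* was at 30.7 CPM in control and at 72.5, 79.0 and 85.9 in vehicle days 1, 7 and 14, with ratios of 1.103 (0.86 to 1.35), 1.48 (1.00 to 1.91) and 1.48 (1.11 to 1.84). It was the 1 of 3 members with enough counts past 2-fold on each day, where 2.86%, 2.79% and 3.58% of genes were. With entospletinib it was at 55.7, 43.7 and 60.04 CPM. Over all pools the thinned share of cells with a *Syk* count in this class (1.78%) was near that of T-cell-like cells (1.69%). Neutrophil markers summed to 79.2 CPM in the control endothelial-cell-like cells and to 435, 222 and 305 in vehicle, and macrophage markers to 799.9 and 806 to 981. The part of these markers was not tested. Injury-like macrophages had *Blnk* at 99.1 CPM at vehicle day 1 against 377.2 in control (ratio -2.01, -2.33 to -1.69), where 21.4% of genes passed 2-fold. The other members past 2-fold rested on few counts in 1 of the pools. In B-cell-like cells *Fgr* was at 75.4 against 25.9 CPM on day 1, from 51 and 22 counts (1.35, 0.62 to 2.16; 1.73% of genes). In NK-cell-like cells *Lyn* was at 764 against 342 CPM on day 7, from 105 and 63 counts (1.25, 0.79 to 1.73; 12.3%). In neutrophil-like cells *Vav1* was at 333 CPM on day 7 (1.013) and 422 on day 14 (1.17) against 174 in control, where 27.8% and 22.6% of genes passed, and the control value came from 18 counts in 68 cells. In plain CPM the day 7 value was under 2-fold (0.90).

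The last comparison asked whether entospletinib changed expression of its target and the other members. At each day 1 vehicle pool and 1 entospletinib pool were compared, and the test (edgeR's quasi-likelihood test, day as a block) used the 3 pairs, so that an effect that differed between days counted as error. In macrophage-like cells *Syk* was lower with entospletinib in 3 of 3 pairs (425 against 493 CPM on average; -0.40, SE 0.11, adjusted p 0.0456). The CPM of the entospletinib pools (349 to 469) and vehicle pools (460.4 to 548) overlapped, and at day 7 the pair stood at 457 against 460.4. Relative to the median gene the daily ratios were -0.33 (-0.40 to -0.26), -0.38 (-0.44 to -0.31) and -0.30 (-0.38 to -0.22), in 8 of 8 sublibraries each, and in resident-like cells alone -0.14, -0.25 and -0.35. In plain CPM, by the levels given above, *Syk* was higher with entospletinib in resident-like cells on day 7 and in injury-like cells on day 14. On the other days it was lower in both subsets or in the remaining subset. The call rested close to the threshold. It was kept in 2 of 14 alternatives (DESeq2, adjusted p 0.0387, and no filter on low counts, adjusted p 0.0344) and lost in 12, with adjusted p up to 0.738 and 0.575 with total counts; the log2 fold change was between -0.45 and -0.22 throughout. It was the only member called in macrophage-like cells, where 6.11% of 13774 genes were called in either direction, and 27.1% of those were higher with TMM factors but 63.8% with total counts. The choice of scaling shifted the median of all genes by -0.18. The members' median was -0.09 and that of all genes 0.01. The share of injury-like cells and the summed monocyte markers of macrophage-like cells were also lower with entospletinib on each day, the markers at 1280, 692 and 626 CPM in vehicle and 581, 671 and 432 in entospletinib days 1, 7 and 14, and their part in the *Syk* value was not tested. *Card9* had an unadjusted p of 0.0464 (-0.37, SE 0.17, adjusted p 0.242). *Lyn* (-0.14, SE 0.12), *Fgr* (-0.06, SE 0.13), *Btk* (0.15, SE 0.11), *Plcg2* (-0.03, SE 0.11), *Vav1* (-0.09, SE 0.12) and *Zap70* (-0.53, SE 0.46) were not called either. Mean CPM of *Btk* was higher with entospletinib (106 against 84.3, in 2 of 3 pairs), and its value stayed positive with total counts (0.33). Of those with a negative fitted value, 4 also had a mean CPM that was higher with entospletinib, in 2 of 3 pairs each: *Lyn* (1487 against 1468), *Fgr* (169 against 152), *Plcg2* (381 against 346) and *Vav1* (331 against 312). With total counts in place of TMM factors their values turned to 0.04, 0.12, 0.15 and 0.09, so that no direction was read from them. *Blnk* was higher with entospletinib than with vehicle on day 1 (relative ratio 0.54, 0.45 to 0.62) and day 7 (0.16) and lower on day 14 (-0.27, -0.36 to -0.19), and the fit over days gave 0.08 (SE 0.15, adjusted p 0.816).

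No member was called in the other 5 classes by edgeR or by DESeq2. *Syk* was lower in 3 of 3 pairs of neutrophil-like cells (-0.52, SE 0.34, adjusted p 0.9997) and B-cell-like cells (-0.24, SE 0.11, adjusted p 0.567), and in 2 of 3 pairs of monocyte-like cells (-0.25, SE 0.15, adjusted p 0.608). Its CPM was higher with entospletinib in 2 of 3 pairs of cDC2-like cells (fitted -0.13, SE 0.16) and in 1 of 3 pairs of T-cell-like cells (fitted -0.06, SE 0.33). By pool, *Syk* in neutrophil-like cells was 1528 CPM in control, 1462, 1054 and 1293 in vehicle and 1047, 1020 and 813 in entospletinib days 1, 7 and 14. In B-cell-like cells it was 1754, then 2119, 1699 and 1360, then 1507, 1643 and 1210 in the same order. The 3 entospletinib pools lay below the 3 vehicle pools in neutrophil-like cells, by 1047 against 1054 CPM at the closest, and the pools overlapped in B-cell-like cells. The neutrophil-like value of entospletinib day 14 rested on 29 *Syk* counts in 45 cells and that of day 7 on 213 counts in 119 cells. How many other genes separated the pools in this way was not determined. Members with an unadjusted p under 0.05 numbered 0 of 7 tested in monocyte-like, 1 of 8 in neutrophil-like (*Vav1*, -0.67, SE 0.34), 2 of 7 in B-cell-like (*Syk*, and *Fgr*, 0.68), 0 of 8 in cDC2-like and 2 of 6 in T-cell-like cells (*Lyn*, -0.52, and *Plcg2*, -1.07). The other members tested in these classes lay between -0.39 (*Vav1* in T-cell-like cells) and 0.37 (*Blnk* in neutrophil-like cells). At the same unadjusted threshold stood 10.2%, 6.35%, 8.19%, 9.36% and 6.95% of all genes tested in these classes, in the same order. The shares of all genes called at an adjusted p under 0.05 were 0.527% in monocyte-like, 0.434% in neutrophil-like, 0.232% in B-cell-like, 0.713% in cDC2-like and 0.018% in T-cell-like cells. With total counts in place of TMM factors the percent of called genes that were higher moved from 40.6 to 16.1, from 22.0 to 40, from 35.3 to 50, from 34.5 to 69.0 and from 0 to 100 in the same order of classes. Whether the difference in *Syk* between drug and vehicle differed between classes was not tested. Between single pairs of pools, without a test, members passed 2-fold relative to the median gene on 1 day each. *Blnk* did so in injury-like macrophages on day 1, at 248 CPM with entospletinib against 99.1 with vehicle (1.41, 1.15 to 1.66; 6.63% of genes), and *Syk* in endothelial-cell-like cells on day 7 (-1.003, -1.45 to -0.51; 2.46%). The latter was under 2-fold in plain CPM (-0.86, 43.7 against 79.0) and with TMM factors (-0.94). Neutrophil markers in these cells were at 222 CPM with vehicle and 160.3 with entospletinib, monocyte markers at 150.3 and 114.7 and macrophage markers at 892 and 784, and their part was not tested. The others rested on 2 to 13 counts in the entospletinib pool: *Fgr* on day 1 (1.17; 11.9%), *Lyn* (-1.25) and *Zap70* (-1.57) on day 14 in NK-cell-like cells (20.8%), and *Vav1* on day 14 in neutrophil-like cells (-1.21; 31.1%).

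A list of 87 other genes of the pathway gave the setting of the members, and its genes were chosen with earlier results of these data known. Between neutrophil-like and macrophage-like cells 37 were higher and 20 lower of 84 tested (25.7% and 34.3% of all genes). Of the C-type lectin and other receptors that use SYK, 8 were higher and 2 lower of 10, among them *Clec4d* (5.70, SE 0.34) and *Clec4e*, the receptor Mincle (5.28, SE 0.32), and, lower, *Mrc1*, the mannose receptor (-4.13, SE 0.27). *Cd72*, an inhibitory co-receptor (-3.60, SE 0.28), and *Fcgr1*, the high-affinity IgG receptor (-3.14, SE 0.31), were lower too. The Tec kinase *Bmx* was at 46.4 CPM against 0.798 (5.95, SE 0.37). Between B-cell-like and macrophage-like cells all 10 of these receptors were lower, while the Src kinase *Blk* (7.68, SE 0.23), the inhibitory receptor *Cd22* (5.65, SE 0.25) and the adaptor *Bank1* (4.86, SE 0.41) were higher and *Trem2* (-5.24, SE 0.55), *Mrc1* (-5.12, SE 0.16) and *Fcgr1* (-4.67, SE 0.27) were lower by the most, with 25 higher and 45 lower of 83 in all (22.5% and 28% of all genes). Monocyte-like against macrophage-like cells gave 31 higher and 19 lower of 86 (17.5% and 26.5% of all genes), with *Bmx* (4.69, SE 0.29), *Clec4e* (2.79, SE 0.45) and *Cd44* (2.31, SE 0.15) higher and *Cd72* (-5.88, SE 0.25) and *Mrc1* (-3.96, SE 0.12) lower. Between B-cell-like and T-cell-like cells 25 were higher and 34 lower of 77 (20.6% and 22.8% of all genes), with *Bank1* (7.65, SE 0.15), *Cd22* (6.80, SE 0.21) and the inhibitory adaptor *Dok3* (4.95, SE 0.29) higher and *Ubash3a*, a negative regulator in T cells (-5.75, SE 0.25), and the T cell adaptor *Skap1* (-5.73, SE 0.14) lower. Injury-like against resident-like macrophages gave 16 higher and 16 lower of 83 (9.02% and 8.53% of all genes), with *Clec4e* (1.78, SE 0.14), *Dok2* (1.64, SE 0.21) and *Clec4d* (1.62, SE 0.16) higher and *Cd72* (-0.76, SE 0.17), *Dok3* (-0.68, SE 0.14) and *Grap2* (-0.58, SE 0.14) lower.

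With entospletinib, 5 of 85 list genes were higher and 11 lower in macrophage-like cells, where 6.11% of all genes were called, 27.1% of them higher with TMM factors and 63.8% with total counts. None of the 10 receptors that use SYK was higher and 5 were lower, with *Clec4n*, the receptor Dectin-2, at 22.8 against 78.5 CPM (-1.96, SE 0.13, adjusted p 3.98e-06) and *Cd44* at 275 against 654 (-1.36, SE 0.15, adjusted p 0.00047), both in 3 of 3 pairs. *Malt1*, a partner of CARD9, was lower (-1.02, SE 0.16, adjusted p 0.0067). *Dok3* (0.60), *Fcgr4* (0.55) and *Grap2* (0.51) were higher. Over 14 alternatives *Clec4n* was called in 14, *Cd44* in 13, *Malt1* in 10, *Fcgr4* and *Grap2* in 9 each and *Dok3* in 7. The summed monocyte markers of these cells, at 1280, 692 and 626 CPM in vehicle and 581, 671 and 432 in entospletinib, and the share of injury-like cells were lower with entospletinib on each day, and their part in these values was not tested. In monocyte-like cells 2 of 70 were lower (0.527% of all genes were called), *Clec7a*, the receptor Dectin-1 (-0.75, SE 0.15), and *Cd44* (-0.72, SE 0.16). Each was called in 2 of 12 alternatives, and both calls were lost with total counts, without the day block, when any day was left out, without cells holding a marker of another lineage and with likelihood assignment. In cDC2-like cells 1 was higher (*Cd72*, 0.87, SE 0.18) and 4 lower of 73 (0.713% of all genes called), including *Clec4n* (-0.96), *Cd44* (-0.85) and *Clec7a* (-0.74). These 4 named calls held in 7, 5, 9 and 5 of 12 alternatives in this order, and each was lost without the day block. In B-cell-like cells 1 of 73 was lower (0.232% called), *Fyn* (-0.62, SE 0.13), a call held in 3 of 12 alternatives and lost with total counts, with DESeq2 and without cells holding a marker of another lineage among others. In neutrophil-like and T-cell-like cells none of 79 and 63 was called, against 0.434% and 0.018% of all genes.

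The genes whose level over 91 sums of 13 classes and 7 pools was most like that of *Syk*, among 3678 genes with members and markers left out, were *Pik3ap1* (Pearson r 0.86), *Nrros* (0.86), *Plek* (0.86), *Ptpn6* (0.86) and *Sp140* (0.85). Among the members *Lyn* (0.88), *Plcg2* (0.88) and *Btk* (0.81) were closest to *Syk*, and *Blnk* (0.36) and *Zap70* (-0.27) were farthest. These correlations run over classes that share pools and depth and are a description.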

How the data were processed

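Kidney cells of 7 conditions, each 1 pool of 3 mice, were profiled by combinatorial barcoding (Evercode), and the deposited matrix holds the authors' raw transcript counts per gene and cell, made with the Parse Biosciences pipeline 1.1 against mm10. Replicates were pooled before barcoding, so no animal can be traced. Barcodes with more than 300 genes, under 20000 counts, under 25% mitochondrial counts and under 1.5% counts of ribosomal protein genes were kept. The limits took the values stated for the study. The set of ribosomal genes behind its limit was not given in the sources used here, where 426 genes named Rps or Rpl were taken, and the number of cells kept differs from the study's. In the files 0 columns of other samples were present. A cell was given the class with the highest fraction of its markers detected, if at least 3 were detected and the fraction was at least 1.5 times that of the next class. No doublet caller was run. Cells whose leading class was under 1.5 times the next fell outside the classes, but a classed cell could still hold a defining marker of another lineage, and 12451 of 22657 macrophage-like and 862 of 2197 B-cell-like cells held none. Assignment by likelihood gave the same class to 95.8% of classed cells. Its class profiles were built from these same cells, so this figure is not an independent check of the classes.

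Counts were summed per pool and class and tested with edgeR 4.0.16 in R 4.3.3 (TMM factors, quasi-likelihood test, Benjamini-Hochberg adjustment over all genes, threshold 0.05). DESeq2 1.42.0 was an alternative, and the edgeR step was tested on simulated data. Ratios without replicate pools used a pseudocount of 0.5 counts and genes whose average over the pair of pools reached 50 CPM. Intervals are 95% exact Poisson for counts and ratios and exact binomial (Clopper-Pearson) for shares, and they cover counting error only. Neighbouring classes were compared on log2(CPM + 1). Other steps used Python 3.11.15, numpy 2.4.6, scipy 1.17.1 and pandas 2.3.3. Depth limited the small pools most, as for 45 neutrophil-like cells in entospletinib day 14.

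By the rule for named genes all 9 members were named in each comparison of classes and for the drug in macrophage-like cells, with those of the smaller drug comparisons given as counts, and of the other pathway genes up to 3 called genes with the largest change in each direction were named, except that 2 results are not reported here. The members and the lists were chosen with earlier results of these data known. Alternatives were other scaling, DESeq2, no filter on low counts, no block, stricter classes, leaving out each day or sublibrary and other cell limits.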

Additional observations from a re-analysis of the deposited data

Results flagged for a closer look

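Each member's level was compared over the 8 sublibraries in 11 classes, 99 groups in all, and 2 groups held a sublibrary far from the others, where chance alone marks about 1 in 20 groups (5 of 99). *Zap70* in cDC1-like cells was at 12.45 CPM in 1 sublibrary against 0 to 3.93 in the others, and *Plcg2* in T-cell-like cells at 49.26 CPM against 22.8 to 30.3.

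In macrophage-like cells *Syk* relative to the median gene was higher in vehicle than in control on day 14 (0.2867) and lower on day 1 (-0.156), in 8 of 8 sublibraries each. With TMM factors these values were 0.27 and -0.04, and in plain CPM 0.20 and -0.02, so that the lower value on day 1 came mostly from the scaling. *Blnk* was higher with entospletinib than with vehicle on day 1 (0.5393) and lower on day 14 (-0.2721), in 8 of 8 sublibraries each. Both opposite directions rest on 1 pool per condition, and the difference between days was not tested.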

How the results depend on the processing

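Of 843 log2 fold changes of members under an alternative, 737 kept direction and side of the threshold, 28 lost a call, 1 gained one (*Vav1* between macrophage subsets with total counts, -0.27), 76 that were called in neither changed sign, and 1 reversed: *Zap70* between neutrophil-like and macrophage-like cells was -0.14 with likelihood assignment. The calls of *Syk*, *Fgr* and *Blnk* in neutrophil-like, monocyte-like and B-cell-like against macrophage-like cells held under each alternative run. The causes of the changes given next were not tested. Cell-based alternatives (likelihood assignment, no marker of another lineage, no ribosomal limit, more than 500 genes, macrophage subsets) were chosen after seeing the data.

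The members called between injury-like and resident-like macrophages went from 4 to 0 without the pool block, and all genes called from 2269 to 588. Without cells holding a marker of another lineage, genes called between B-cell-like and T-cell-like cells went from 3445 to 1958.

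For entospletinib in macrophage-like cells the 1 called member, *Syk*, became 0 with total counts, with no day block, with 1 marker more, with no ribosomal limit, with more than 500 genes, with no marker of another lineage, with likelihood assignment and within either macrophage subset, and 0 to 0 when a day was left out. All genes called (841) became 1 with no day block, 466 with no marker of another lineage, 505 in resident-like and 98 in injury-like macrophages, and 151 to 556 when a day was left out (lowest without day 7).

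In monocyte-like cells the 32 genes called became 15 with DESeq2, 73 with no filter, 0 with no day block, 7 with 1 marker more, 14 with no ribosomal limit, 0 with no marker of another lineage, 0 with likelihood assignment and 2 to 20 when a day was left out. In neutrophil-like cells the 41 became 65 with total counts, 16 with DESeq2, 0 with no day block, 0 with more than 500 genes, 24 with no marker of another lineage and 0 to 31 when a day was left out. In B-cell-like cells the 17 became 10, 3, 43 and 7 with total counts, DESeq2, no filter and no day block, 100 with no ribosomal limit, 78 with more than 500 genes, 0 with no marker of another lineage, 67 with likelihood assignment and 3 to 12 when a day was left out. In cDC2-like cells the 58 became 29, 3, 35 and 0 with total counts, DESeq2, no filter and no day block, 11 with 1 marker more, 11 with no marker of another lineage, 18 with likelihood assignment and 31 to 109 when a day was left out. In T-cell-like cells the 1 became 0 with DESeq2, 21 with no filter, 0 with no day block, 173 with no ribosomal limit, 4 with more than 500 genes, 0 with no marker of another lineage, 35 with likelihood assignment and 0 to 24 when a day was left out.

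Member and day pairs past 2-fold in cDC2-like cells were 1 to 2 when a sublibrary was left out (2 without sublibrary 2). Over all pools together, the macrophage-like share of *Syk* counts went from 25.2% to 27.0% with likelihood assignment, and the monocyte-like share from 9.48% to 28.3%, the highest of the classes. By pool the monocyte-like share was highest only in the day 1 pools, and the macrophage-like share was highest in all others. No paired analysis was possible by replicate number, because these numbers name sublibraries that each hold every condition, and no condition had more than 1 pool. The tests were paired by pool (classes) and by day (drug), and the fits without these blocks are given above.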
